A study of Mus musculus with 6 samples.

Results

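Described here are 10 genes, of 18194 named on the array, with large differences between wild type and Ifrd1 Ifrd2 double knockout jejunum: Hddc3, Abhd1, Slc1a3, Bclaf1, Gas2, Mcoln3, Pcdh19, Bche, Daam1 and Snhg14. They were chosen by the log2 difference between the 2 groups on these same 6 arrays, which was large on at least 1 probe set of each gene, so their differences are a description. Where counts past the threshold of the limma fit are given for them, these say how the probe sets stand in the whole table and are no independent evidence. Every probe set that the platform annotation assigns to exactly 1 of these 10 genes was taken, which gave 30 of the 45101 probe sets of the array. The arrays were Affymetrix Mouse 430 2.0 chips, 1 for each of 6 male mice on a C57BL/6 background. The wild type group was mice 1, 3 and 4, and the double knockout group was mice 1, 2 and 3, which lacked both TIS7 (Ifrd1) and SKMc15 (Ifrd2), a pair of related proteins described as transcriptional regulators. All mice were 7 to 10 weeks old, were caged singly and ate the same high saturated fat diet, with 42% of energy from milk fat and added cholesterol. The extraction protocol gives 3 weeks of feeding for the tissues used, while the growth protocol gives 3 to 8 weeks of feeding. The labels do not say how the alleles were made or which exons are missing, and no mice on ordinary chow were included.

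Each value is a log2 expression level for 1 probe set, a group of short probes that report 1 stretch of a transcript. The targeted genes were checked first. Ifrd1 read 10.00, 9.84 and 9.91 in wild type mice and 6.27, 4.80 and 4.85 in double knockout mice. Ifrd2 read 8.20, 8.32 and 8.61 in wild type mice and 2.64, 2.74 and 2.59 in double knockout mice. Both were lower on every double knockout array, and a probe set outside the removed part of a gene would check nothing. Array medians lay between 2.87 and 2.90. Enterocyte markers (Vil1, Fabp2, Lct, Apoa4 and others) were bright on every array: all 9 were tested.

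These genes do not form a pathway. Hddc3 (MESH1) is an HD domain phosphohydrolase related to the bacterial enzymes that degrade the alarmone ppGpp, and Abhd1 belongs to the alpha/beta hydrolase fold proteins. Slc1a3 (GLAST) carries glutamate and aspartate into cells and is best known from astrocytes, and Bclaf1 is a nuclear RNA-binding protein of transcription and pre-mRNA processing. Gas2 links actin filaments and microtubules, Mcoln3 (TRPML3) is a cation channel of endosomes and lysosomes, Pcdh19 is a delta-protocadherin of cell adhesion, and Bche is butyrylcholinesterase, which hydrolyses choline esters. Daam1 is a formin that assembles actin filaments downstream of Wnt planar polarity signals. Snhg14 is a long non-coding RNA that hosts small nucleolar RNAs of the imprinted Snrpn domain and runs antisense to Ube3a.

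The upstream sequences of 4 genes with a large difference, or with probe sets that differed among themselves, are shown. Each is the 250 bases before an annotated transcription start in RefSeq (GRCm38.p6), read in the direction of the gene, and Daam1 has 2 annotated starts in that table. No such window was found for Abhd1, and those of the remaining genes, Bclaf1 and Bche among them, are not shown. Capitals mark the GC box GGGCGG, the CCAAT box and TATAAA on either strand.
Hddc3, chr7:80342887-80343136, plus strand: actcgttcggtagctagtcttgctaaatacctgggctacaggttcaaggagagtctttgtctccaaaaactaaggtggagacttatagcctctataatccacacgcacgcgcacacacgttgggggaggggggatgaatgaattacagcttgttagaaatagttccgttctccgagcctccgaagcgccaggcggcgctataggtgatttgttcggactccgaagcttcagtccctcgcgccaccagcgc
Mcoln3, chr3:146121541-146121790, plus strand: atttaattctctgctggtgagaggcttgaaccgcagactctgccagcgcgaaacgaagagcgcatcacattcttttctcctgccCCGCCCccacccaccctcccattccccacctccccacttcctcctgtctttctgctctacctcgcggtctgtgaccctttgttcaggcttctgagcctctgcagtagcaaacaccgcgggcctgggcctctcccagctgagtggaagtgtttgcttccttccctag
Daam1 upstream start, chr12:71830818-71831067, plus strand: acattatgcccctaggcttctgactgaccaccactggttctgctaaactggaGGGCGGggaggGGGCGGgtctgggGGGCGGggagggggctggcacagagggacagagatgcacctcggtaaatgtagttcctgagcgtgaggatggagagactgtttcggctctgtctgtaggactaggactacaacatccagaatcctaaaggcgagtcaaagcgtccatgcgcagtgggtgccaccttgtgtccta
Daam1 downstream start, chr12:71889293-71889542, plus strand: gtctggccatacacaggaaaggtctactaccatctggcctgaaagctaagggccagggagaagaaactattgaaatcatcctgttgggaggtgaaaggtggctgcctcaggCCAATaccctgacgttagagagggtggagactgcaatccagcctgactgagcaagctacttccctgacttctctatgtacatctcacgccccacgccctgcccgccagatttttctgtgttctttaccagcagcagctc
Snhg14, chr7:60450178-60450427, minus strand: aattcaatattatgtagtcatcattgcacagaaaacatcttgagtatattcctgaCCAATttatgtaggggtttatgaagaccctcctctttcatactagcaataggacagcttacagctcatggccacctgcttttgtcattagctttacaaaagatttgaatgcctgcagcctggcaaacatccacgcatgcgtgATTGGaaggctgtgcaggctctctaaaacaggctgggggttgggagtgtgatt
The Hddc3 window held none of these motifs, and the upstream Daam1 window held GGGCGG 3 times. The downstream Daam1 window held no GGGCGG and 1 CCAAT, and the Snhg14 window held 2 CCAAT. Mcoln3 had 1 GGGCGG, on the opposite strand. Over the 11 windows found for 9 of the genes, 7 held GGGCGG, 6 held CCAAT, 1 held TATAAA and 7 held the E-box CANNTG. Of all 32851 windows of this length, 32.7% held GGGCGG, 33.8% CCAAT, 12.4% TATAAA and 66.2% CANNTG. A match of letters is a description of the window and does not show a binding site.

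The group differences spanned a wide range. Of the 30 probe sets, 19 exceeded 4 on the log2 scale in at least 3 mice and entered the fit, and the other 11 read between 0.95 and 3.22 on all arrays. In the limma fit over 18013 probe sets, 13 of the 19 had an adjusted p of at most 0.05 (double knockout against wild type, 3 mice each), 5 higher and 8 lower. The background was 4.47% of all tested probe sets, 2.54% higher and 1.93% lower, and nothing is read from that contrast because it chose the genes. By the fitted difference all 13 also differed by at least 2-fold, and 0.922% of all tested probe sets met both limits. With values under 4 raised to 4, the 2 Slc1a3 probe sets had bounds below 2-fold, 1.84-fold and 1.80-fold. The groups did not overlap on 15 of the 19, against 34.3% of all tested probe sets. A probe set that passed the minimum only through the group in which it was bright had to differ, as was the case for those of Hddc3, Mcoln3, Daam1 and Slc1a3 named as such below.

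Differences of at least 2 on the log2 scale occurred on 50 tested probe sets (0.277%), and 6 of the genes each had 1 of them: Hddc3, Abhd1, Mcoln3, Snhg14, Daam1 and Gas2. For Hddc3, Mcoln3 and Daam1 a whole group lay under the minimum, so the size is only a bound, and with values under 4 raised to 4 the Daam1 difference was -1.84. The largest differences of the remaining 4 genes were smaller: 1.19 for Slc1a3 (from wild type values under 4), 1.24 for Bclaf1, -1.35 for Pcdh19 and -1.61 for Bche. The word "very large" thus fits these 4 less well than the others.

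**Figure D1:**
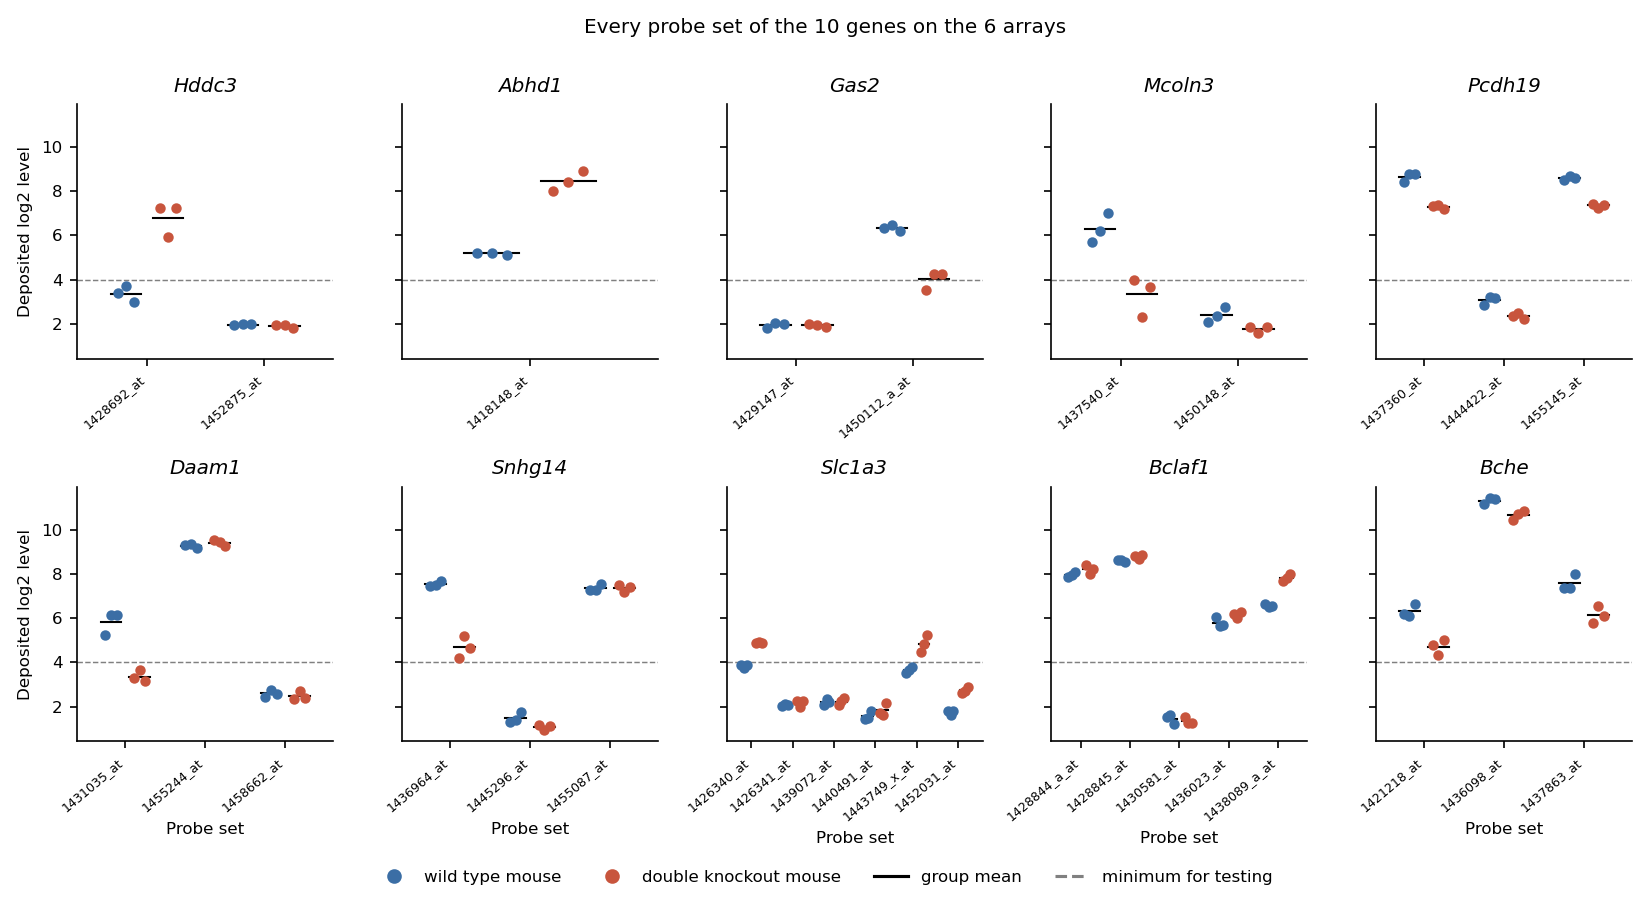
Deposited log2 level (vertical axis) of all 30 probe sets of the 10 genes (horizontal axis), with a point for each of the 3 wild type and 3 double knockout mice and a bar at each group mean. The dashed line is the minimum of 4; the Hddc3 and Abhd1 points lie apart in opposite order to those of Gas2 and Mcoln3, and Daam1, Snhg14 and Bclaf1 each show probe sets that separate the groups beside others that do not.

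Hddc3 was far higher in double knockout jejunum. Its tested probe set, 1428692_at, read 3.37, 3.72 and 3.00 in wild type mice and 7.22, 5.92 and 7.23 in double knockout mice. No wild type value reached the minimum of 4 and every double knockout value lay above it, with double knockout mouse 2 the lowest of its group. The mean difference was 3.42 ± 0.38 (SE) on the log2 scale, given as at least 6.92-fold since the wild type values were raised to 4. The second Hddc3 probe set, 1452875_at, read between 1.81 and 1.98 on all 6 arrays, under the minimum, with overlapping groups. Both probe sets are annotated with the same source sequence, so they disagreed in the double knockout mice.

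Abhd1 was measured by 1 probe set, 1418148_at. It read 5.20, 5.22 and 5.13 in wild type mice and 8.02, 8.41 and 8.90 in double knockout mice. The wild type mice were nearly equal (SD 0.05, n = 3) while the double knockout mice spread more (SD 0.44, n = 3), and a gap of 2.80 separated the groups. The difference was 3.26 ± 0.21 (SE). In the GRCm38.p6 gene table, made on the C57BL/6J strain, Abhd1 is classed as a transcribed pseudogene.

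Slc1a3 was dim throughout. Of its 6 probe sets, 2 entered the fit and both passed the minimum only through the double knockout mice. On 1426340_at the wild type mice read 3.86, 3.74 and 3.87 and the double knockout mice 4.86, 4.91 and 4.89, at least 1.84-fold higher. On 1443749_x_at the values were 3.53, 3.65 and 3.79 against 4.46, 4.84 and 5.26, at least 1.80-fold higher. The groups did not overlap on either probe set. Among the 4 untested probe sets, 1452031_at read 1.78, 1.63 and 1.81 in wild type and 2.63, 2.72 and 2.89 in double knockout mice, and the groups overlapped on the other 3, whose differences lay between 0.02 and 0.25.

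Bclaf1 was higher on 1 of its 4 tested probe sets. On 1438089_a_at the wild type mice read 6.66, 6.50 and 6.57 and the double knockout mice 7.68, 7.80 and 7.98, a difference of 1.24 ± 0.10 (SE) with no overlap. Probe set 1428844_a_at read 7.84, 7.94 and 8.11 against 8.42, 8.01 and 8.21, a difference of 0.25 ± 0.13. Probe set 1428845_at read 8.64, 8.63 and 8.56 against 8.82, 8.66 and 8.87, a difference of 0.17 ± 0.09. On 1436023_at the difference was 0.35 ± 0.14. All 4 differences were positive, but the last 3 did not pass the threshold, and 2 of them had overlapping groups. The remaining Bclaf1 probe set, 1430581_at, stayed between 1.19 and 1.60.

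Gas2 was lower in every double knockout mouse. Probe set 1450112_a_at read 6.34, 6.46 and 6.21 in wild type mice and 3.53, 4.27 and 4.25 in double knockout mice. The difference was -2.32 ± 0.21 (SE), and the groups were 1.94 apart at their nearest values. The other Gas2 probe set, 1429147_at, read between 1.79 and 2.05 on all arrays.

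Mcoln3 varied most between mice. On 1437540_at the wild type mice read 5.68, 6.21 and 7.02 (SD 0.67, n = 3) and the double knockout mice 3.99, 2.32 and 3.67 (SD 0.89, n = 3). The median spread within groups over all tested probe sets was 0.15. Every double knockout value was under 4, so the gene was at least 4.94-fold lower, and the fitted difference was -2.98 ± 0.50 (SE). The dim probe set 1450148_at read 2.07, 2.36 and 2.75 in wild type and 1.85, 1.58 and 1.85 in double knockout mice, again without overlap but below the minimum.

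Pcdh19 was lower by a similar amount on both of its tested probe sets. On 1437360_at the wild type mice read 8.41, 8.77 and 8.76 and the double knockout mice 7.33, 7.35 and 7.21, a difference of -1.35 ± 0.12 (SE). On 1455145_at they read 8.51, 8.69 and 8.59 against 7.42, 7.25 and 7.38, a difference of -1.25 ± 0.09. The changes on these 2 probe sets differed by 0.10. The dim 1444422_at read 2.84, 3.22 and 3.16 against 2.35, 2.48 and 2.22.

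All 3 Bche probe sets were lower in double knockout jejunum, by unequal amounts. On 1421218_at the wild type mice read 6.21, 6.10 and 6.65 and the double knockout mice 4.80, 4.33 and 5.0, a difference of -1.61 ± 0.21 (SE). On 1437863_at they read 7.38, 7.35 and 8.00 against 5.76, 6.54 and 6.09, a difference of -1.45 ± 0.25. On 1436098_at they read 11.14, 11.42 and 11.39 against 10.43, 10.73 and 10.84, and the difference of -0.65 ± 0.14 did not pass the threshold. The groups did not overlap on any of the 3.

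Daam1 and Snhg14 were the clearest cases of disagreement between tested probe sets. On 1431035_at Daam1 read 5.22, 6.14 and 6.16 in wild type mice and 3.27, 3.65 and 3.13 in double knockout mice, at least 3.58-fold lower. On 1455244_at it read 9.31, 9.34 and 9.18 against 9.51, 9.44 and 9.24, with overlapping groups. The groups overlapped on the second probe set and not on the first, and the third, 1458662_at, read between 2.36 and 2.76 everywhere.

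For Snhg14 too, the groups lay apart on 1 tested probe set and overlapped on the other. On 1436964_at the wild type mice read 7.44, 7.52 and 7.67 and the double knockout mice 4.20, 5.19 and 4.66, a difference of -2.86 ± 0.24 (SE). On 1455087_at they read 7.25, 7.29 and 7.56 against 7.48, 7.17 and 7.39. The difference on the second was -0.02 ± 0.13. The dim probe set 1445296_at read 1.32, 1.39 and 1.76 in wild type and 1.16, 0.95 and 1.11 in double knockout mice, without overlap but below the minimum.

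**Figure D2:**
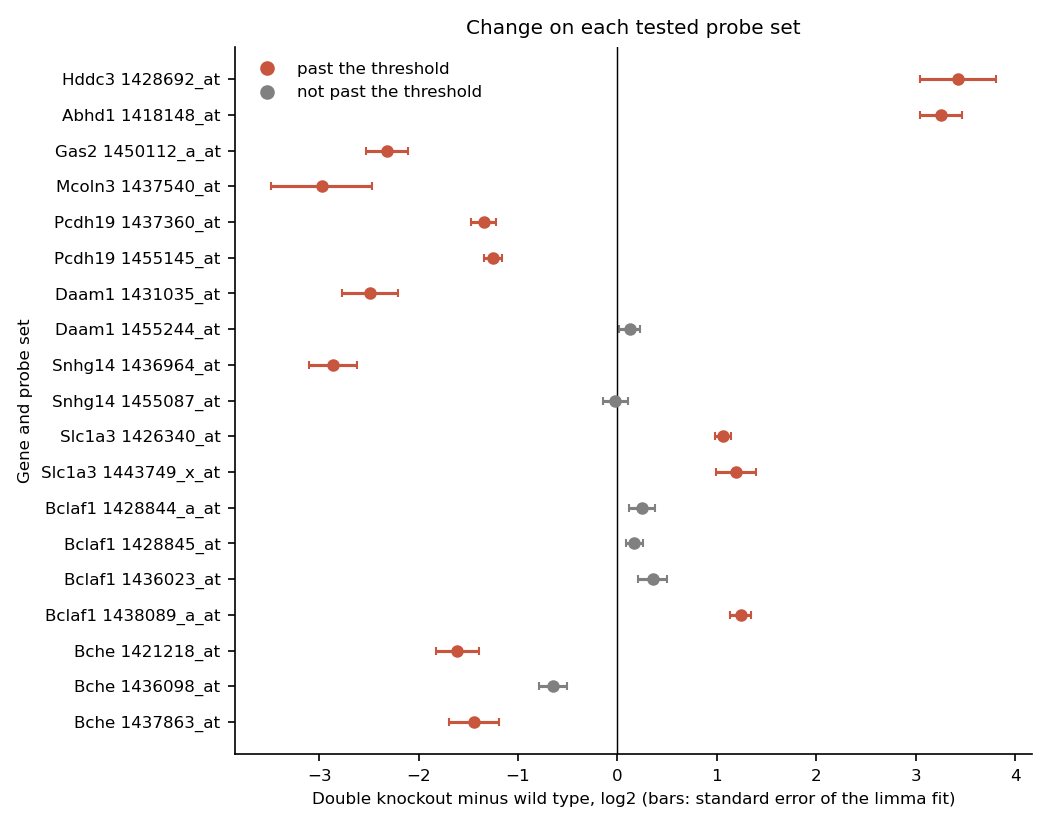
Double knockout minus wild type on the log2 scale (horizontal axis) for the 19 tested probe sets (vertical axis), with bars for the standard error of the limma fit and colour for the threshold. The 2 Pcdh19 and the 2 Slc1a3 points lie together, while the Daam1 points are 2.61 apart and the Snhg14 points 2.84 apart.

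Between the tested probe sets of a gene, the changes spanned 2.84 for Snhg14, 2.61 for Daam1 (a range that rests on values under 4), 1.07 for Bclaf1, 0.96 for Bche, 0.13 for Slc1a3 and 0.10 for Pcdh19. The median of this range over all 3919 genes with several tested probe sets was 0.19, and a gene chosen for 1 strongly changed probe set tends to a wide range. Of the 10 genes, 4 of the 6 genes with several tested probe sets had some past the threshold and some not, and the same was true of 265 of the 317 such genes with at least 1 call in the whole table (83.6%). The files do not hold the probes' sequences or positions in the transcripts, so which exon or 3′ end each probe set reads is not given here.

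The 10 genes lie on 7 chromosomes in the GRCm38.p6 table, with Hddc3, Gas2 and Snhg14 on chromosome 7, Mcoln3 and Bche on chromosome 3, and Daam1 on chromosome 12, which also carries Ifrd1. To see whether they stand alone, the 5 nearest tested genes on each side were examined. Nearest means the order among tested genes, with no limit on distance, so a neighbour may lie far away. Gas2 and Snhg14 shared neighbours although their upstream windows start at bases 51861765 and 60450178 of chromosome 7. Of these 96 neighbours, 7 rose and 1 fell past the limma threshold, against 4.79% of the 9674 genes tested (3.18% higher, 1.60% lower). The median log2 difference was 0.02 for the neighbours and 0.05 for all genes. None of the neighbours of Hddc3, Pcdh19 or Bche passed in that limma fit, where 5 of those 30 were higher and 5 lower at an unadjusted p under 0.05. Over all 9674 genes, 17.6% were higher and 10.4% lower at that limit.

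The neighbours that passed were the following. Myb, a transcription factor of progenitor cells and the next tested gene to Bclaf1, read 9.49, 9.59 and 9.55 in wild type and 10.13, 10.10 and 10.16 in double knockout mice, a rise of 0.59 ± 0.08 (SE; limma adjusted p = 0.0222). On either side of Gas2, which was lower, the arginine methyltransferase Prmt3 rose by 0.88 ± 0.12 and the gamma-tubulin complex gene Tubgcp5 by at least 1.65-fold (limma adjusted p 0.0223 and 0.0209). Tubgcp5 read 3.98, 3.89 and 3.60 in wild type mice, so it was tested only through the double knockout mice and had to be higher there. It was also among the neighbours of Snhg14, as was Mphosph10, a U3 small nucleolar ribonucleoprotein component, which rose by 0.91 ± 0.16 (limma adjusted p = 0.0346). Cad, the enzyme that starts pyrimidine synthesis, lay near Abhd1 and rose by 1.02 ± 0.13, and Znhit6, a snoRNP assembly factor near Mcoln3, rose by 0.70 ± 0.10 (limma adjusted p 0.0189 and 0.0249). The remaining pair is named after its values were seen: Brix1, a ribosome biogenesis factor near Slc1a3, rose by 0.50 ± 0.10, and Arid4a, a chromatin protein near Daam1, fell by 0.58 (limma adjusted p 0.0452 and 0.0436). The number of neighbours that passed was 0, 0 and 1 without wild type mouse 1, 3 and 4, and 1, 9 and 0 without double knockout mouse 1, 2 and 3. Calls over all tested probe sets fell from 805 to between 32 and 435 in these fits.

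**Figure D3:**
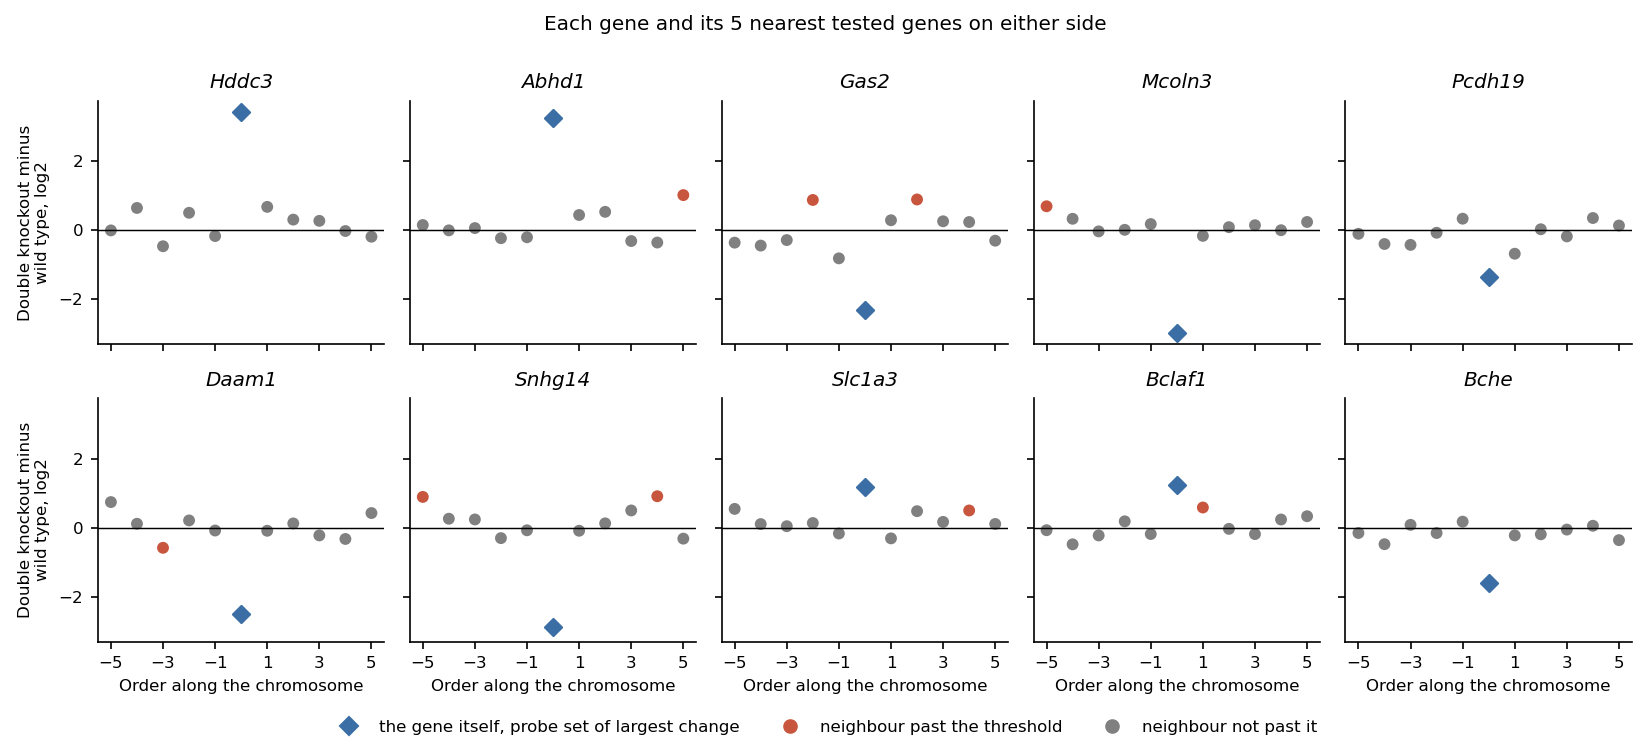
Double knockout minus wild type on the log2 scale (vertical axis) for each of the 10 genes (diamond, probe set of largest difference) and its 5 nearest tested genes on either side (points), in chromosomal order (horizontal axis, in genes). Over all 10 panels, 7 neighbours rose and 1 fell; the diamonds lie far from 0 because the genes were chosen for it.

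Relatives and partners of the 10 genes were examined in the same fit. Of 127 listed genes, 87 were tested, 1 rose and 1 fell, against 4.79% of all genes past the threshold, with a median log2 difference of 0.01. Abhd11, an alpha/beta hydrolase of mitochondria, rose by 0.43 ± 0.09 (SE; limma adjusted p = 0.0492) among 16 tested relatives of Abhd1, whose median was -0.10. The formin Fmn1 fell by 0.52 (SE 0.10, limma adjusted p = 0.0422) among 10 tested formins and polarity partners of Daam1, whose median was 0.02. Neither call was kept when any 1 mouse was left out.

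In the other 8 lists 0 of 61 tested genes passed the limma threshold, and 11 were higher and 5 lower at an unadjusted p under 0.05 (17.6% and 10.4% of all genes). These counts pool lists that differed. The median log2 difference was 0.03 for the Hddc3 list, 0.29 for Slc1a3, 0.18 for Bclaf1 and 0.31 for Pcdh19. It was -0.12 for the Gas2 list, -0.06 for Mcoln3, -0.19 for Bche and -0.08 for Snhg14, beside 0.05 for all genes. Of 12 HD domain and nucleotide or NADP(H) genes related to Hddc3, the smallest p-values belonged to Hddc2 at 0.57 ± 0.14 and Nudt12 at -0.42 ± 0.16 (limma adjusted p 0.0676 and 0.158). Among 7 genes of glutamate transport and metabolism, the neuronal and epithelial glutamate transporter Slc1a1 stood at 0.51 ± 0.12 and the glutamine transporter Slc1a5 at 1.02 ± 0.38 (limma adjusted p 0.0578 and 0.147). Among 13 splicing partners of Bclaf1, the splicing factor subunits U2af1 and U2af2 stood at 0.42 ± 0.09 and 0.38 ± 0.10 (limma adjusted p 0.0553 and 0.0816).

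Among 4 tested GAS2 domain linkers, Gas2l3 stood at -0.39 ± 0.12 and Dst at -0.19 ± 0.16 (limma adjusted p 0.109 and 0.484). Among 12 endolysosomal genes, the lysosomal transcription factor Tfe3 stood at 0.45 ± 0.10 and the membrane protein Lamp2 at -0.30 ± 0.10 (limma adjusted p 0.0544 and 0.128). Among 4 tested protocadherins and N-cadherin, Pcdh17 stood at 0.41 ± 0.16 (limma adjusted p = 0.172). N-cadherin, Cdh2, read 3.90, 3.97 and 3.94 in wild type mice, all under the minimum, and 4.37, 4.18 and 4.24 in double knockout mice, at least 1.20-fold higher (limma adjusted p = 0.0779), and it was tested only through the latter. Among 7 esterase and acetylcholine genes, the carboxylesterases Ces2e and Ces1e stood at -0.28 ± 0.09 and -0.48 ± 0.20 (limma adjusted p 0.114 and 0.175). Only 2 genes of the Snrpn domain were bright enough: Ube3a, to which Snhg14 is antisense, stood at -0.07 ± 0.08 and Ndn at -0.09 ± 0.17 (limma adjusted p 0.598 and 0.777).

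Several of the 10 genes are known from non-epithelial cells, so markers of those cells were measured too; in whole tissue, fewer cells of a type and less RNA per cell cannot be told apart. Of 73 tested markers of 16 cell types, 0 rose and 1 fell past the limma threshold, against 4.79% of genes, and 7 were higher and 4 lower at an unadjusted p under 0.05 (17.6% and 10.4% of all genes). Of the 6 enteric glia markers on the array, 5 (Sox10, S100b, Gfap, Cdh19 and Foxd3) were under 4 on every array, and the summed linear level of all 6 was 248 to 262 in wild type and 212 to 277 in double knockout mice. The 7 enteric neuron markers summed to 920.3 to 1398 and 613 to 1090.3, and the 8 smooth muscle markers to 9024 to 10272 and 8671 to 11071. The 7 fibroblast markers summed to 3302 to 5301 and 5120.2 to 6555, and the 7 macrophage markers to 2437 to 3955 and 2845 to 4095. A linear sum mostly follows its brightest markers, such as Entpd2 for glia, Vip for neurons and Lyz2 for macrophages. The median log2 difference of the tested markers was -0.25 for neurons, 0.04 for smooth muscle, 0.48 for fibroblasts and 0.35 for macrophages. The groups overlapped in each of the sums above. They did not overlap for the 9 enterocyte markers (102782 to 104675 against 95114 to 99262), the 5 plasma cell markers (6968 to 8472 against 8540.1 to 9024), the 5 pancreatic acinar markers (136 to 163 against 188 to 233) or the 5 tuft cell markers (152 to 196 against 87.9 to 114). Of the acinar markers, 4 (Cpa1, Cela2a, Prss2 and Ctrb1) were under 4 on every array, as were 4 tuft cell markers (Dclk1, Trpm5, Pou2f3 and Gfi1b), so these sums mostly hold Cela1 and Rgs13. The tuft cell marker Rgs13 read 7.14, 6.91 and 7.37 in wild type and 6.41, 6.05 and 5.94 in double knockout mice and was the marker that fell. The groups also lay apart on 34.3% of all single tested probe sets, so gaps of this kind were common. The median log2 difference was -0.06 for the 9 tested enterocyte markers and 0.38 for the 4 tested plasma cell markers, with 0 past the threshold. The part of these sums in the differences of the 10 genes was not tested.

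Other genes followed the same course over the 6 arrays, a pattern that any gene with a clear group difference shares. The closest by Pearson correlation with the probe set of largest difference were Snrpe for Hddc3, Htra2 for Abhd1, Ppp1r7 for Slc1a3 and Rae1 for Bclaf1. For the lower genes they were Mgst1 for Gas2, Spty2d1 for Mcoln3, Jakmip1 for Pcdh19, Wdtc1 for Bche, Reg3a for Daam1 and Phyh for Snhg14. These correlations lay between 0.994 and 0.999 over 6 arrays, and between 124 and 433 probe sets reached 0.95 for each gene, so the order among them is not resolved.

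How many probe sets of the 10 genes passed depended on the arrays used. The 3′ minus 5′ difference of the Actb and Gapdh control probe sets, a sign of RNA integrity, was 0.35, 0.49 and 0.36 in wild type and 0.60, 0.41 and 0.61 in double knockout mice, so double knockout mice 1 and 3 lay above every wild type mouse. With it as a covariate, 2 of the 13 probe sets stayed past the threshold, those of Hddc3 (2.63 ± 0.21) and Pcdh19 1455145_at (-1.37 ± 0.10), and the sizes elsewhere included 3.21 ± 0.31 for Abhd1 and -3.70 ± 0.57 for Mcoln3. Of the 19 probe sets, 8, 7 and 4 passed without wild type mouse 1, 3 and 4, and 10, 12 and 7 without double knockout mouse 1, 2 and 3. Over all 18013 tested probe sets, 805 passed with all 6 mice and 17 with the covariate. There, 71, 69 and 32 passed without wild type mouse 1, 3 and 4. Without double knockout mouse 1, 2 and 3, 204, 435 and 80 passed. The 10 genes were chosen for this contrast, so nothing is read from setting these counts side by side.

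**Figure D4:**
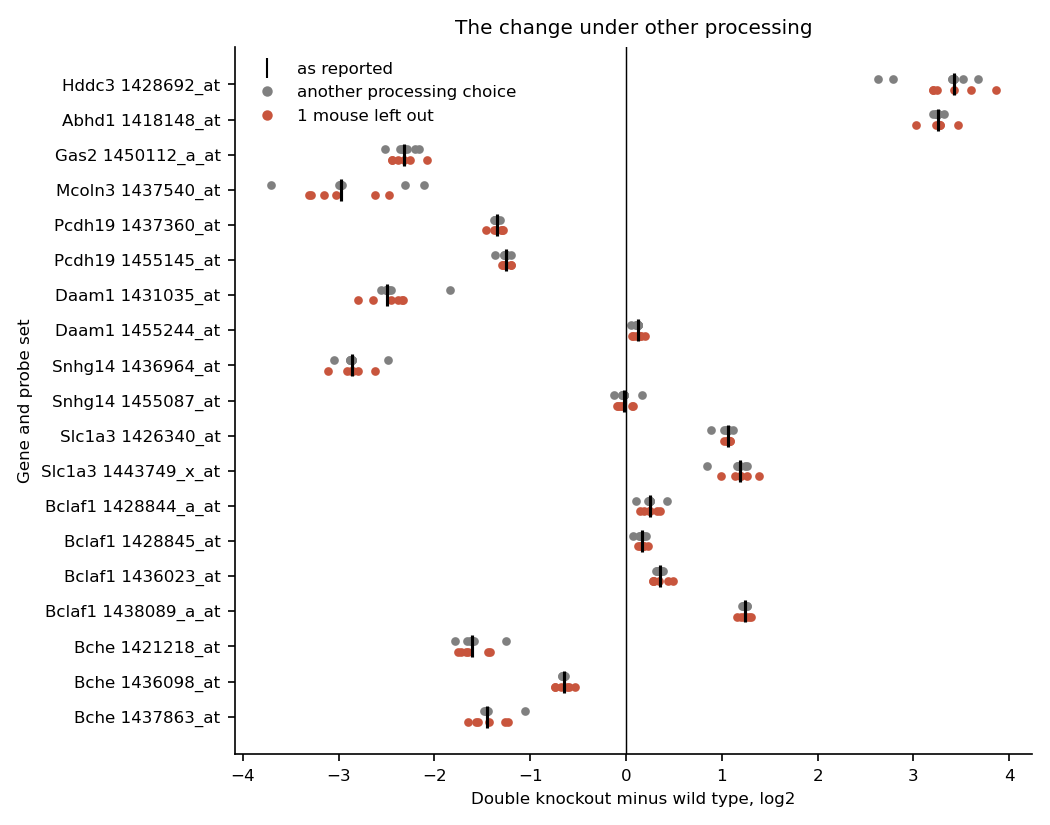
Double knockout minus wild type on the log2 scale (horizontal axis) for the 19 tested probe sets (vertical axis) as reported (tick), under other processing choices (grey) and with 1 mouse left out (red). Hddc3 ranged from 2.63 to 3.86 and Mcoln3 from -3.70 to -2.11, and the 13 probe sets past the threshold kept their side of 0 throughout, which their choice largely fixes.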

How the data were processed

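Expression was measured in jejunum from 6 separate mice, 3 per group, on Affymetrix Mouse 430 2.0 arrays. The deposited values are log2 levels; the submitters' processing notes name GCRMA 2.18.0 as the tool the authors used, and its settings and any genome build are not given. GCRMA models background from probe sequence, so low levels, and folds from them, depend on that model. The log2 scale was read from the values.

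Names come from the platform annotation, with symbols updated from a GRCm38.p6 table; a single symbol was found for 34958 of 45101 probe sets, several for 932 and none for 9211. The 64 control probe sets were left out, as were probe sets not above 4 on at least 3 arrays, which left 18013. The test was limma 3.58.1 (R 4.3.3, lmFit and eBayes), two-sided, adjusted by Benjamini-Hochberg over these, with a threshold of 0.05, and was tested on simulated data. Errors of differences are limma's standard errors. For genes other than the 10, the probe set with the highest mean was used. The search for closest patterns instead took in every tested probe set of other genes. A fold is a bound, with values raised to 4, when a whole group lay under 4. The number of arrays limits the precision, and no array was a copy of another in its own group. Arrays of different groups were not compared for copies.

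The 10 genes and all gene lists were chosen with earlier results of these data known. Named by rule were every probe set of the 10 genes; of each related list, up to 4 genes that passed or the 2 of smallest p; of the neighbours, up to 6 by p; and the gene of closest pattern. Alternatives covered the filter, normalization, floor, variance prior, array weights, mouse number, RNA quality, window and leaving out each mouse. Figures were drawn with matplotlib 3.10.9.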

Additional observations from a re-analysis of the deposited data

How the results depend on the processing

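The number of calls depended strongly on the processing, and the size of some differences did too: Mcoln3 ran from -3.70 with the RNA quality covariate to -2.11 with the block, Hddc3 from 2.63 with the covariate to 3.86 without double knockout mouse 2, and Daam1 1431035_at from -2.80 without wild type mouse 1 to -1.84 with values under 4 raised to 4. Over 283 recomputed differences of the 19 tested probe sets, 269 moved by less than 1 SD between replicates, 14 moved by more and 0 of those past the threshold changed sign. Probe sets called over the whole table numbered 805, against 472 without the filter, 1730 with a trended robust prior, 13 with the replicate block and 17 with the RNA quality covariate. Of the 13 called probe sets of the 10 genes, the replicate block left 1 and the covariate 2. The 2 called relatives became 0 without the filter, 6 with a stricter filter, 1 after quantile normalization or median centring, 9 with the trended robust prior, 4 with array weights, 0 with the block, 0 with the covariate and 4 when every probe set was counted. The 8 called neighbours became 15 with the trended robust prior, 0 with the block and 0 with the covariate; they were 4 of 60 with 3 genes on each side and 15 of 186 with 10. The 1 called cell type marker became 2 with the stricter filter or with values under 4 raised to 4, 5 with the trended robust prior and 0 with the block or covariate. Leaving out 1 mouse gave 32 to 435 calls over the whole table, 4 to 12 for the 10 genes, 0 for their relatives, 0 to 9 for neighbours and 0 to 2 for markers. Only mice 1 and 3 of each group share a number in the labels, their deviations from the group means correlated by 0.02 and 0.30, and the numbers were not taken as pairs. In the replicate block, which fits a level for each mouse number, wild type mouse 4 and double knockout mouse 2 had no partner. Its differences thus came from mice 1 and 3 of each group alone, with little left to estimate the error. Counts with the block are therefore not comparable with those of the fit to all 6 mice. The cause of the lost calls was not tested. Levels under 4 limit Hddc3, Mcoln3, Daam1, Slc1a3, Tubgcp5 and Cdh2, whose folds are bounds.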
